A study of Mus musculus with 4 samples.

Results

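The genes described here are 37 members of the integrated stress response and the unfolded protein response, taken by gene symbol from the deposited table of 32681 genes. They comprise 8 eIF2 kinases, endoplasmic reticulum (ER) sensors and their regulators, 17 targets of the transcription factor ATF4, and 12 ER chaperones and genes of ER-associated degradation (ERAD). All 37 were in the table and all 37 passed the filter on low counts. RNA sequencing was done on primary neuronal cultures from the neocortex of wild-type CD-1 mouse embryos at embryonic day 13, grown in Neurobasal medium with B27. Cultures were transfected with a control shRNA (n = 2 libraries) or with a DcpS shRNA (n = 2 libraries); DcpS is a scavenger decapping enzyme, which clears the cap that remains once a messenger RNA has been degraded from its tail. The titles of the knockdown libraries name a single hairpin, so effects of that hairpin and of less DcpS cannot be told apart. The study set out to find genes downstream of DcpS.

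In the integrated stress response, kinases that sense haem loss, ER stress or amino acid shortage phosphorylate the translation factor eIF2. General translation then slows while ATF4 is made from its messenger RNA, and ATF4 switches on genes of amino acid supply, redox balance and cell death. In the unfolded protein response, the ER sensors PERK, IRE1 and ATF6 raise chaperones and ERAD components, and in developing cortex these pathways have been linked to the output of neural progenitors. The table gives 1 value per gene, so eIF2 phosphorylation, Xbp1 splicing, ATF6 cleavage and ATF4 protein were not measured.

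The libraries held from 17754768 to 21793685 reads in genes, and a count of 0 allowed at most 0.138 to 0.169 CPM (reads scaled to library size), counting error only. Dcps stood at 499.8 and 506.6 normalised read counts in the controls and at 114.5 and 119.6 in the knockdown libraries, 23.3% of the control mean. The neuronal tubulin Tubb3 stood at 19013 to 19935 normalised counts in the 4 libraries. In the marker lists that follow, chosen with earlier results of these data known, higher and lower mean a limma adjusted p under 0.05. By that measure 2.14% of all genes tested were higher and 3.65% lower. Of 16 tested markers of meningeal fibroblasts and matrix, 16 were lower with DcpS shRNA, with a median log2 fold change of −0.78. Their summed normalised counts were 22528 and 24291 in the control libraries and 14121 and 13418 in the knockdown libraries. Of 11 tested astrocyte markers 5 were lower and 1 higher, with a median of −0.43. Gfap stood at 51.1%, Aqp4 at 45.8%, Slc1a3 at 92.0%, Fabp7 at 100% and Aldoc, the gene called higher, at 116% of the control mean. The summed counts of the list, which its abundant genes carry, were closer between the groups. These summed counts were 20330, 19804, 18797 and 19562 in the order control 1, control 2, DcpS shRNA 1, DcpS shRNA 2. Of 8 tested endothelial and mural markers 3 were lower (median −0.65), while Pecam1 (0.93) and Tagln (0.51) had fold changes above 0 without being called. Of 5 tested choroid plexus markers 2 were lower (median −0.44). Among these lower genes, DESeq2 did not call Kdr (adjusted p = 0.217) and Aqp1 (0.365). Of 12 neuronal markers 1 was higher (Rbfox3, 0.24) and 2 were lower (Snap25, −0.26, and Syt1, −0.22). In this list 10 of the 12 had a fold change below 0, with a median of −0.033. Its summed counts were 108940 and 107220 in the control libraries and 103670 and 102510 in the knockdown libraries. Of 9 tested microglia markers 1 was higher (Laptm5, 0.73) and 0 were lower, with a median of 0.029. Of 7 tested markers of the oligodendrocyte lineage 1 was higher (Mbp, 0.47) and 1 lower (Pdgfra, −0.63, also in the fibroblast list), with a median of −0.22. The part of these shifts in the results below was not tested. In RNA from whole cultures fewer cells of a type and less RNA per cell cannot be told apart.

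Most members, like most genes tested, differed little between the groups. By limma with Benjamini-Hochberg adjustment over 18110 genes, 3 of 37 members (8.11%) passed an adjusted p of 0.05, against 5.79% of all genes tested. Atf4 and Atf5 rose, where 2.14% of all genes were higher. Ppp1r15b fell, where 3.65% of all genes were lower. The median log2 fold change of the members was 0.027, beside 0.00074 for all genes tested. Differences are DcpS shRNA minus control on the scale log2(normalised count + 1), which understates the change of genes with low counts. The difference was smaller than 0.2 on this scale, in either direction, for 78.4% of the members and for 70.2% of all genes. Genes with low counts scatter more, and these shares were not matched for level. The 2 groups did not overlap for 21 of 37 members (56.8%), and they did not overlap for 48.4% of all genes tested. An unadjusted limma p under 0.05 was found for 11 of 37 members and for 18.7% of all genes tested.

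The other 2 tools, run on the recovered whole reads, gave different numbers of calls for the same members. edgeR called 4 of 37, adding Edem1 to the 3 genes above, with 5.77% of all genes called. DESeq2 called Atf5 alone of 36 members with an adjusted p, with 3% of all genes called. With 2 libraries a group, an exact permutation test of a single gene cannot go below p = 0.333, so the calls rest on the spread pooled across genes. The labels do not say whether the libraries came from separate litters, and the p-values measure the spread between these 4 libraries.

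**Figure D1:**
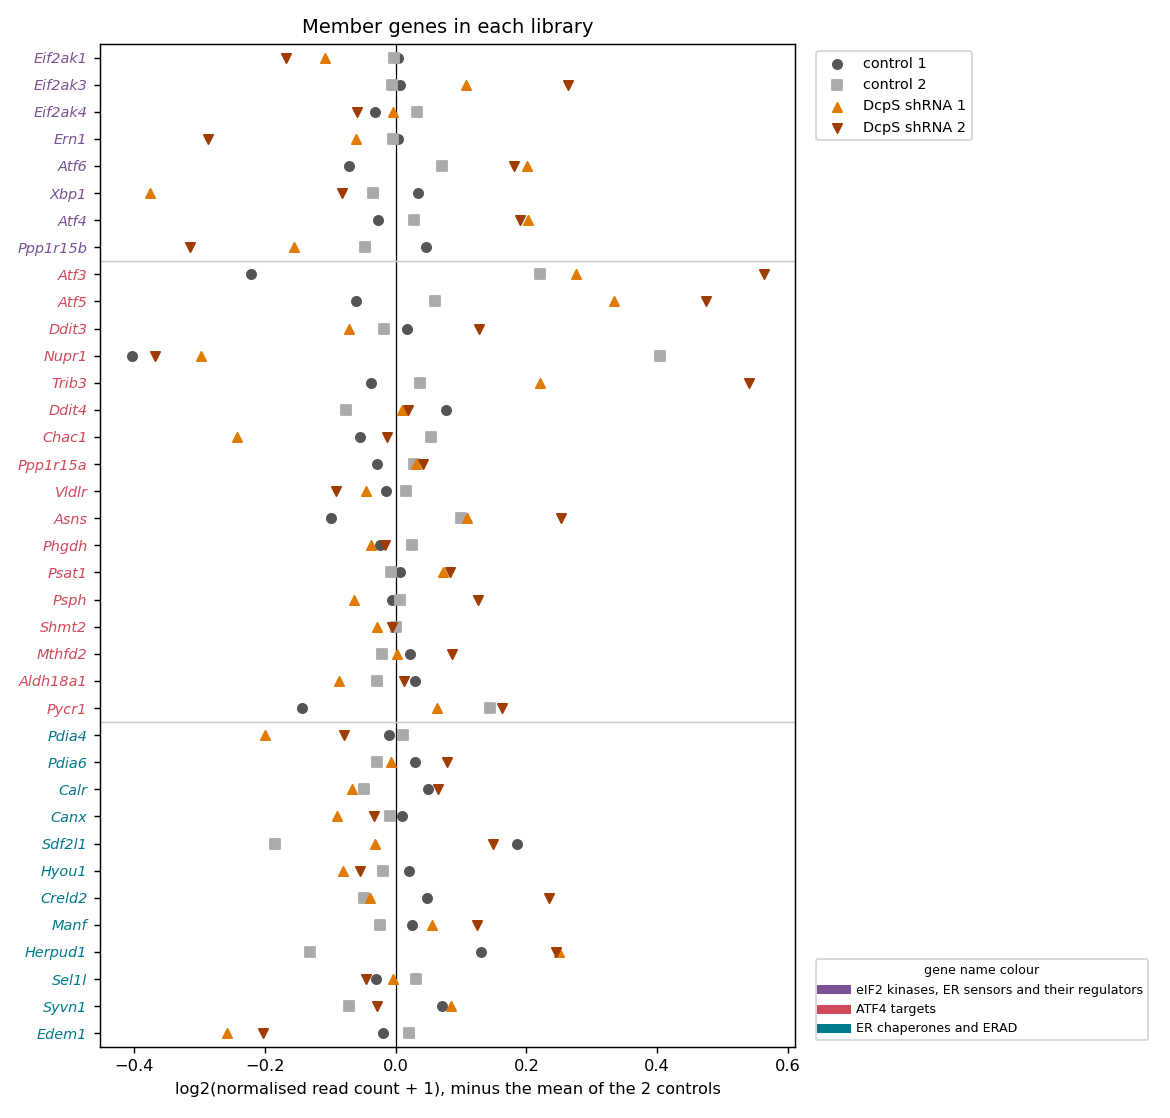
Each point is 1 library's log2(normalised read count + 1) for 1 of the 37 members, minus the mean of the 2 controls, with members grouped by role. Atf4 and Atf5 lie above both controls in both DcpS shRNA libraries, Ppp1r15b and Edem1 lie below both, and Nupr1 shows the widest spread between controls.

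The 8 regulators split in direction, with 3 above and 5 below 0 and a median of −0.085. Atf4 and Ppp1r15b, 1 gene in each direction, passed the test (25% of the 8, beside 5.79% of all genes). In addition, 6 of the 8 had an unadjusted p under 0.05, beside 18.7% of all genes. Groups did not overlap for 7 of the 8, beside 48.4% of all genes.

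Atf4 (GRCm38 chr15:80255184-80257541, plus strand) encodes the transcription factor whose translation rises when eIF2 is phosphorylated. It measured 2594.9 and 2696.1 normalised counts in the control libraries and 3042.8 and 3019.5 in the knockdown libraries. Both knockdown libraries were above both controls, and the means were 2645 ± 71.6 and 3031 ± 16.5 (SD, n = 2). The log2 fold change was 0.20 (SE 0.052, limma adjusted p = 0.0356), a level 115% of control. The call ended with DESeq2 (adjusted p = 0.131), without control 1 (limma adjusted p = 0.334) and without control 2 (0.142).

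Ppp1r15b (GRCm38 chr1:133131143-133139783, plus strand) encodes the constitutive regulatory subunit that brings protein phosphatase 1 to eIF2, and so opposes the kinases. It measured 1547.8 and 1450.1 in the control libraries and 1344.7 and 1204.7 in the knockdown libraries. The groups did not overlap, and the DcpS shRNA mean was 85.0% of control, with a log2 fold change of −0.24 (SE 0.065, limma adjusted p = 0.0435). This call ended with DESeq2 (adjusted p = 0.202) and under limma without control 1 (0.293), without control 2 (0.0514), without DcpS shRNA 2 (0.190) and without the genes that hold a seed word, defined below with Edem1 (0.0525). On the opposite strand Gm26616 overlaps 11.4% of its exon bases. Gm26616 itself was listed at 2.1 to 3.4 normalised counts. Strand use in counting was not given in the sources used here, and the part of this overlap in the value of Ppp1r15b was not tested.

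Of the eIF2 kinases, Eif2ak1, Eif2ak3 and Eif2ak4 are members, and with limma, edgeR and DESeq2 none of them passed, although Eif2ak1 and Eif2ak3 had an unadjusted p under 0.05. Eif2ak3, the gene of the ER sensor PERK, stood at 679.4 and 673.8 in the control libraries and at 728.7 and 812.4 in the knockdown libraries. Its log2 fold change was 0.19 (95% interval 0.031 to 0.34, limma adjusted p = 0.172), with both knockdown libraries above both controls. Eif2ak1, the haem-regulated kinase, stood at 1307.4 and 1302.4 against 1211.1 and 1161.1, a log2 fold change of −0.14 (95% interval −0.26 to −0.014, limma adjusted p = 0.212). Its knockdown values were thus below both controls, and Aimp2 and Ankrd61 overlap 11.6% of its exon bases on the other strand. Eif2ak4, the amino acid sensor GCN2, stood at 850.4 and 889.1 against 866.8 and 834.8, with overlapping groups and a log2 fold change of −0.032 (limma adjusted p = 0.857).

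The other ER sensors differed in direction. Atf6, an ER membrane protein whose released part is a transcription factor, measured 683.2 and 753.8 in the control libraries and 825.0 and 813.5 in the knockdown libraries. The log2 fold change of Atf6 was 0.19 (95% interval 0.041 to 0.34, limma adjusted p = 0.143), and its groups did not overlap. Ern1, the gene of the sensor and nuclease IRE1, measured 619.5 and 616.3 against 592.4 and 506.2. DcpS shRNA 2 was the low library for Ern1, and the log2 fold change was −0.17 (95% interval −0.35 to 0.0021, limma adjusted p = 0.275). Xbp1, whose messenger RNA IRE1 splices into the form that encodes an active transcription factor, measured 927.4 and 884.0 against 697.8 and 854.9. Here DcpS shRNA 1 was the low library, with a log2 fold change of −0.23 (95% interval −0.41 to −0.051, limma adjusted p = 0.140). Xbp1 was called without DcpS shRNA 2 (limma adjusted p = 0.00266) and with a replicate block (0.0286), where the libraries numbered 1 and those numbered 2 are paired. Without DcpS shRNA 1, Ern1 (0.0482) and Eif2ak3 (0.0466) were called.

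**Figure D2:**
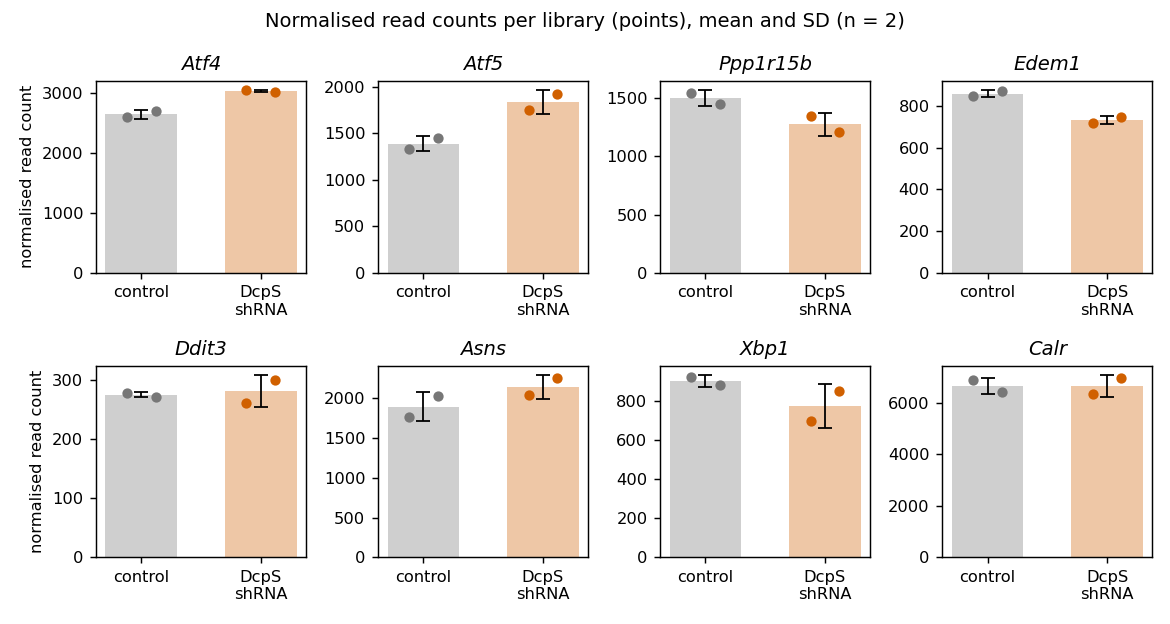
Bars give the mean normalised read count of control and DcpS shRNA cultures for 8 genes, error bars the SD (n = 2), and points the single libraries, with every axis from 0. Atf4 had means of 2645 and 3031 and Atf5 of 1388 and 1837, while Calr had means of 6647 and 6646.

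ATF4 with its partners binds the C/EBP-ATF response element (CARE). The letters TGATGNAA were searched on both strands in RefSeq promoter windows of 300 bases (250 before to 50 after the start, GRCm38.p6), which 33 of the 37 members had. There was none for Atf6, Ppp1r15b, Hyou1 and Manf. The letters were present for 7 of 17 ATF4 targets (41.2%), for 1 of 10 ER genes (Herpud1) and for 0 of 6 regulators, and for 324 of 11741 tested genes with a window (2.76%). Of all windows 3.97% held them. A match describes these letters and is not a measured binding site. The 7 are shown because they separate the targets by a feature that expression did not choose, each on its gene's strand with the match, or its reverse complement, in capitals.
Asns, chr6:7693213-7693244, minus strand: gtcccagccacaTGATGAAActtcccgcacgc
Atf3, chr1:191183424-191183455, minus strand: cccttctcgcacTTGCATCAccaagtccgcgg
Chac1, chr2:119351037-119351068, plus strand: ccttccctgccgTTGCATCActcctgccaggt
Nupr1, chr7:126625561-126625592, minus strand: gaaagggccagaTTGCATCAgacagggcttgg
Pycr1, chr11:120643832-120643863, minus strand: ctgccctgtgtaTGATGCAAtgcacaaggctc
Trib3, chr2:152344027-152344058, minus strand: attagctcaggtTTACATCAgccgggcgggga
Vldlr, chr19:27216808-27216839, plus strand: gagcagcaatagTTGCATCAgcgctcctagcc

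The 17 ATF4 targets did not move together. Atf5 rose (5.88% of the 17 called, beside 5.79% of all genes) and 16 did not pass the test. None was called lower, and 11 had a fold change above 0. Their median log2 fold change was 0.031 (range −0.33 to 0.42), and 13 of 17 differed by less than 0.2. The groups did not overlap for 8 of the 17 (47.1%), about the share over all genes (48.4%). The 7 targets with the CARE letters had a median of 0.11 (range −0.33 to 0.42) with 0 called. That median is the value of Pycr1, whose groups overlapped and whose fold change was −0.031 without control 1. The 7 also include Atf3, Nupr1 and Trib3, the members with the widest intervals. The 10 without the letters had a median of 0.030 (range −0.038 to 0.40) with 1 called, Atf5.

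Atf5 (GRCm38 chr7:44812256-44816658, minus strand) encodes a transcription factor whose translation, like that of Atf4, is controlled by upstream reading frames, and which is known in cortex for keeping progenitors from differentiating. It measured 1329.3 and 1446.0 normalised counts in the control libraries and 1747.2 and 1927.7 in the knockdown libraries. The means were 1388 ± 82.5 and 1837 ± 128 (SD, n = 2), and both knockdown libraries lay above both controls. The log2 fold change was 0.40 (SE 0.064, 95% interval 0.27 to 0.54, limma adjusted p = 0.000983). edgeR gave an adjusted p of 0.00112 and DESeq2 one of 0.000605, and Atf5 was called in 14 of 14 alternative settings. Il4i1 and Nup62 overlap 8.23% of its exon bases on the opposite strand. Nup62, a nuclear pore gene, stood at 1831.9, 1888.0, 1877.1 and 2046.1 in library order, a log2 fold change of 0.076 (limma adjusted p = 0.541), and Il4i1 was listed at 1.0 to 6.4.

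Atf3 and Trib3 had fold changes of the same size as Atf5 at far lower counts. Atf3, a stress-induced repressor of transcription, was listed at 17.1 and 23.6 in the control libraries and 24.5 and 30.2 in the knockdown libraries. The groups did not overlap, but its log2 fold change of 0.42 had a 95% interval from −0.22 to 1.06 (limma adjusted p = 0.509). Trib3, a pseudokinase that restrains the kinase AKT and ATF4 itself, was listed at 40.9 and 43.1 against 49.1 and 61.5. Its log2 fold change was 0.38 (95% interval −0.077 to 0.84, limma adjusted p = 0.374), with DcpS shRNA 2 the highest library. Differences of this size in these genes were not detectable at this depth and replication.

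Ddit3, the gene of the pro-apoptotic factor CHOP, stood at 278.4 and 271.8 in the control libraries and at 261.7 and 300.6 in the knockdown libraries. The 2 knockdown libraries lay on either side of the controls, and the log2 fold change was 0.028 (95% interval −0.19 to 0.25, limma adjusted p = 0.930). Nupr1, a small chromatin protein induced by stress, was listed at 37.1 and 65.6 against 40.0 and 38.0. Its log2 fold change of −0.33 (limma adjusted p = 0.545) followed control 2, the high library, and was 0.071 without it. The remaining signalling targets were Chac1, which breaks down glutathione (−0.13), the mTORC1 inhibitor Ddit4 (0.015), the stress-induced eIF2 phosphatase subunit Ppp1r15a (0.036) and the lipoprotein and reelin receptor Vldlr (−0.069).

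The 8 biosynthetic targets, for serine, folate-linked carbon, proline and asparagine, had a median of 0.037 and a range from −0.038 to 0.18. Of the 8, 0 passed the test with limma, edgeR or DESeq2, beside 5.79%, 5.77% and 3% of all genes. Only 1 (Asns) had an unadjusted limma p under 0.05, beside 18.7% of all genes. Asns, asparagine synthetase, had the highest value of the 8. It measured 1761.6 and 2022.3 in the control libraries and 2035.2 and 2248.4 in the knockdown libraries, a log2 fold change of 0.18 (95% interval 0.034 to 0.33, limma adjusted p = 0.160). The groups of Asns did not overlap, but DcpS shRNA 1 and control 2 were nearly level. It was called without control 2 (limma adjusted p = 0.0448), without DcpS shRNA 1 (0.0283) and with the replicate block (0.0383). The serine pathway enzymes Phgdh (−0.028), Psat1 (0.078) and Psph (0.031), the mitochondrial folate enzymes Shmt2 (−0.017) and Mthfd2 (0.043), and the proline enzymes Aldh18a1 (−0.038) and Pycr1 (0.11) were smaller in size. The median of these 8 enzymes, minus the control mean, was −0.013 in DcpS shRNA 1 and 0.084 in DcpS shRNA 2, so the group's median above 0 stood in the second library.

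**Figure D3:**
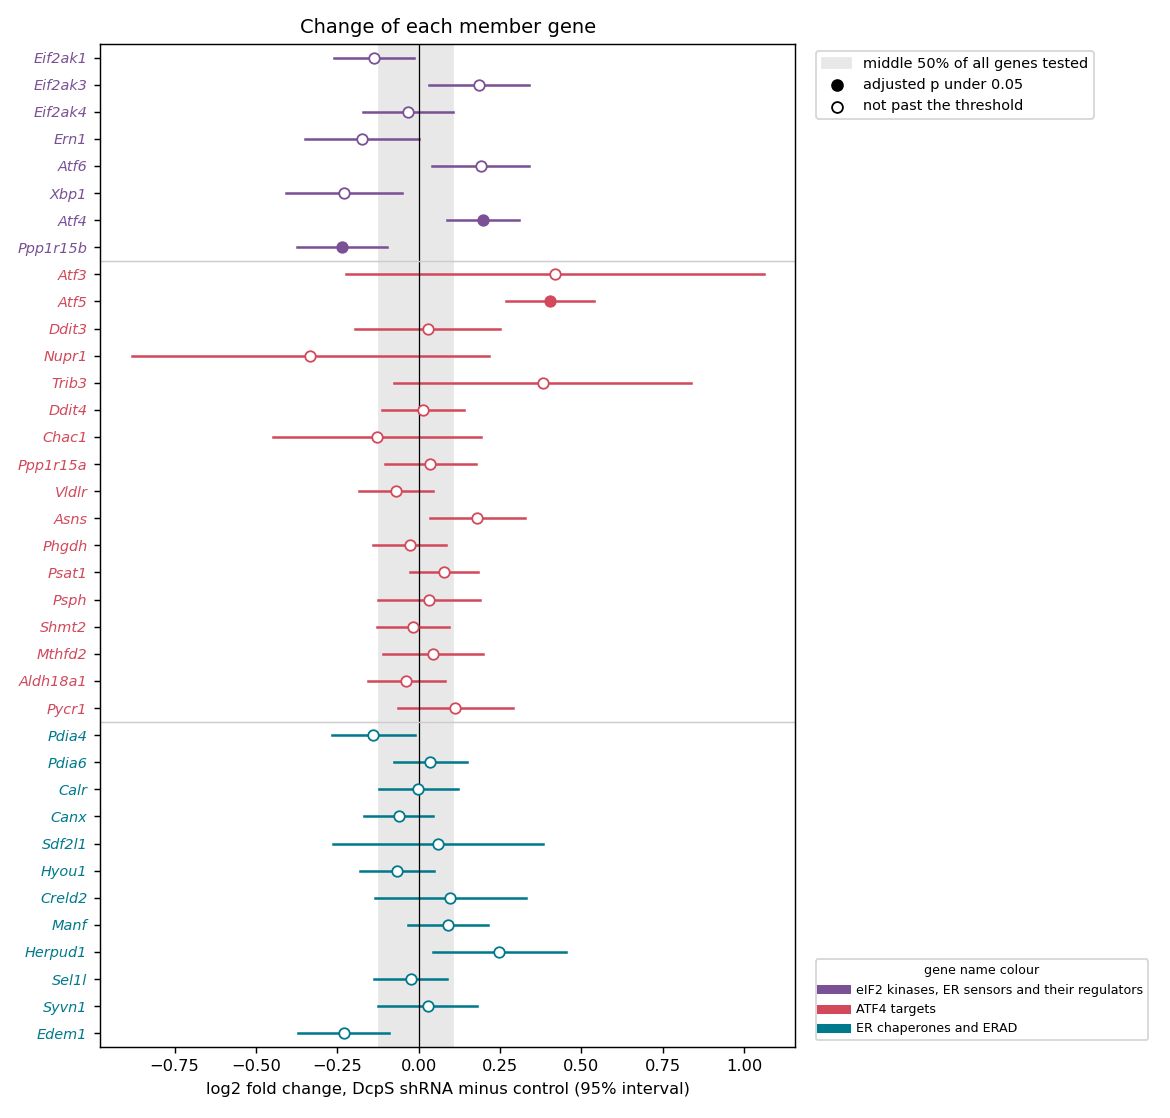
Log2 fold change of each member with its 95% interval from limma (x axis), by role, with filled points for an adjusted p under 0.05 and a grey band for the middle 50% of all genes tested (−0.12 to 0.11). The 3 filled points are Atf4, Ppp1r15b and Atf5, and the widest intervals belong to Atf3, Nupr1 and Trib3.

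Chaperone promoters are known for the ER stress response element (ERSE), bound by ATF6 together with NF-Y. The letters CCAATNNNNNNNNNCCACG, searched on both strands, were present in the window of 5 of 10 ER genes (50%), of 0 of 17 ATF4 targets and of 0 of 6 regulators, and of 21 of 11741 tested genes with a window (0.179%). Of all windows 0.119% held them. The 5 are printed because they carry the element that ER chaperones are known for, and capitals mark the match or its reverse complement.
Calr, chr8:84847063-84847105, minus strand: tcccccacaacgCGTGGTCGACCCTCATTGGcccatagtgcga
Canx, chr11:50325788-50325830, minus strand: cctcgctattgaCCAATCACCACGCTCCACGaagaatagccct
Creld2, chr15:88819508-88819550, plus strand: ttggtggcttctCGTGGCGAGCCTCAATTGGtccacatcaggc
Pdia6, chr12:17266479-17266521, plus strand: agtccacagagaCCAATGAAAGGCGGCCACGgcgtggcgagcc
Syvn1, chr19:6046520-6046562, plus strand: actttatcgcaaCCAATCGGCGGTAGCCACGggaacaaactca

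With limma 0 of the 12 ER genes passed the test, beside 5.79% of all genes tested. Among the 12, 3 had an unadjusted p under 0.05 (Pdia4, Herpud1 and Edem1), beside 18.7% of all genes, while edgeR called Edem1 and DESeq2 called 0. The median log2 fold change was 0.013 (range −0.23 to 0.25), and groups did not overlap for 6 of 12 (50%), close to the 48.4% of all genes. The 95% interval lay within 1.5-fold in either direction for 12 of 12 ER genes, for 14 of 17 ATF4 targets and for 69.1% of all genes tested. Intervals widen as counts fall, and the sets were not matched for level. The ATF4 targets outside the bound were Atf3, Nupr1 and Trib3, at a mean of 1.20 to 2.45 CPM. The 5 genes with the ERSE letters had a median of 0.027 (range −0.062 to 0.097), and the 5 with a window but without the letters one of −0.025 (range −0.23 to 0.25), with 0 called in each.

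The 8 folding genes had a median of 0.017. Calr, the calcium-binding lectin chaperone calreticulin, was the most abundant member per length, at an RPKM of 116 (reads per kilobase of exon, scaled to library depth). It measured 6872.6 and 6420.8 in the control libraries and 6340.9 and 6950.8 in the knockdown libraries, a log2 fold change of −0.00087 with a 95% interval from −0.12 to 0.12. The high libraries of Calr were control 1 and DcpS shRNA 2. Its membrane-bound relative Canx had a log2 fold change of −0.062. Disulfide isomerase Pdia4 stood at 1457.6 and 1479.8 against 1278.3 and 1390.2, a log2 fold change of −0.14 (95% interval −0.27 to −0.012, limma adjusted p = 0.219), while the related Pdia6 was at 0.036. The chaperone Hyou1 (−0.067), the chaperone partner Sdf2l1 (0.059) and the ER stress-induced secretory pathway proteins Creld2 (0.097) and Manf (0.090) lay within 0.1 of 0.

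The 4 ERAD genes had a median of 0.0012 and held both the highest and the lowest fold change of the 12 ER genes. Edem1 (GRCm38 chr6:108828641-108859356, plus strand), which steers misfolded glycoproteins to degradation, measured 846.6 and 870.7 in the control libraries and 717.8 and 745.4 in the knockdown libraries. Both knockdown libraries lay below both controls, at 85.2% of the control mean, and the log2 fold change was −0.23 (SE 0.066, limma adjusted p = 0.0515). edgeR gave an adjusted p of 0.0424 and DESeq2 one of 0.328. Herpud1, a membrane component that gathers the ERAD machinery, measured 397.2 and 331.2 against 431.6 and 430.2. Its log2 fold change was 0.25 (95% interval 0.043 to 0.45, limma adjusted p = 0.170), and control 2 was the low library. The ubiquitin ligase Syvn1 (0.027) and its adaptor Sel1l (−0.025) differed least.

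Edem1 also carries, in its 3′ UTR, the 7-base words ACGTGCA and CACGTGC, which the Dcps transcript holds too and which are called seed words. They were picked in an earlier look at these data. The hairpin's own sequence was not used here, so whether the words match it was not tested, and the name is a label only. The overlapping pair of words is shown in Dcps and Edem1 with the word CACGTGC in capitals.
Dcps: ctatcacctgCACGTGCatttcacagc
Edem1: caggcacgttCACGTGCaactgtgaat
A seed word was present in 2 of 37 members (5.41%), Edem1 and Eif2ak4, in 1097 of 13790 tested genes with a 3′ UTR (7.96%), and in 214 of 646 such genes called lower (33.1%). Because the words were picked from these same data, the share among genes called lower is not an independent test. The part of the words in the value of Edem1 was not tested. Atf4, Atf5 and Ppp1r15b hold neither word.

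The ATF4 targets and the ER genes differed little from each other as lists. The medians of 0.031 and 0.013 were 0.018 apart, and this difference turned to −0.031 without control 1 and was 0.085 without control 2. In DcpS shRNA 1 the medians, minus the control mean, were 0.0016 for the ATF4 targets and −0.036 for the ER genes. In DcpS shRNA 2 they were 0.083 and 0.018. Among the controls they lay at −0.024 and 0.024 for the ATF4 targets and at 0.027 and −0.027 for the ER genes. Both lists were thus higher in DcpS shRNA 2 than in DcpS shRNA 1, and each list's median differed more between these 2 libraries than the overall medians differed between the lists.

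**Figure D4:**
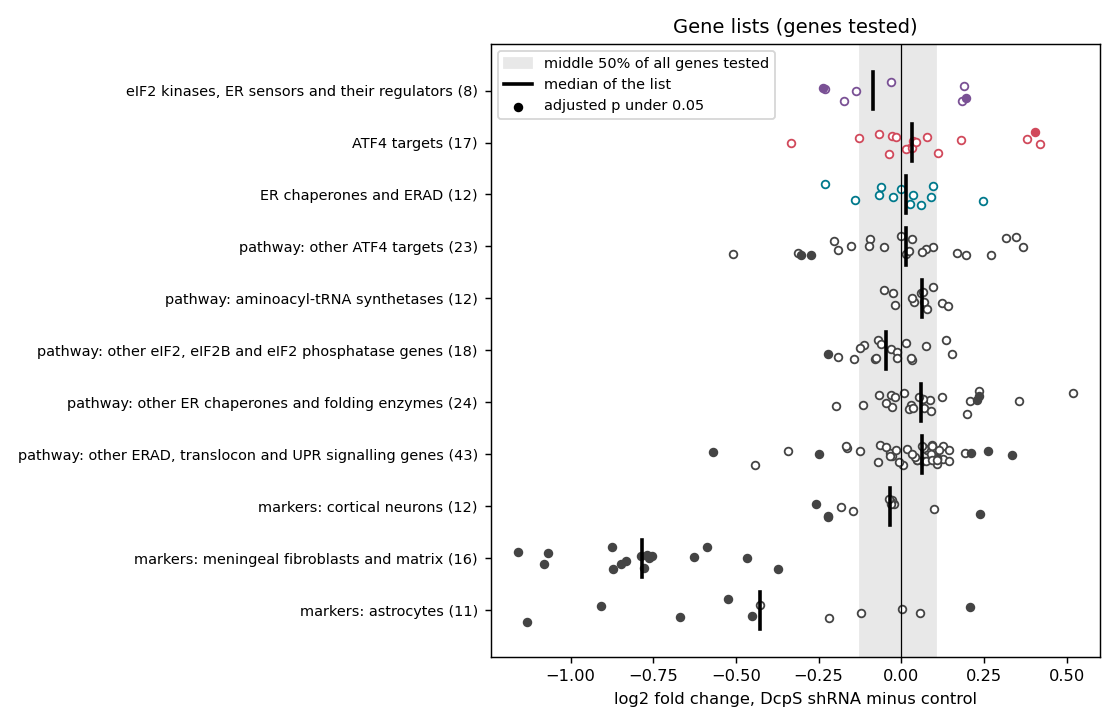
Each point is the log2 fold change of 1 gene (x axis) in the 3 member groups, 5 further pathway lists and 3 marker lists, with the list median as a bar, filled points for an adjusted p under 0.05 and the middle 50% of all genes in grey. The member and pathway medians lie between −0.085 and 0.064, and the fibroblast and matrix markers have a median of −0.78.

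Levels differed widely among the members. On the RPKM scale, which divides by exon length, Calr was followed by Canx (67.6), Pdia6 (61.5), Atf4 (60.7), Ddit4 (58.0) and Psat1 (53.0). The lowest levels were those of Atf3 (0.559), Nupr1 (0.907), Trib3 (1.15), Chac1 (3.50) and the sensor Ern1 (3.60). Of the 5 lowest, Atf3, Nupr1, Trib3 and Chac1 are stress-induced targets.

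**Figure D5:**
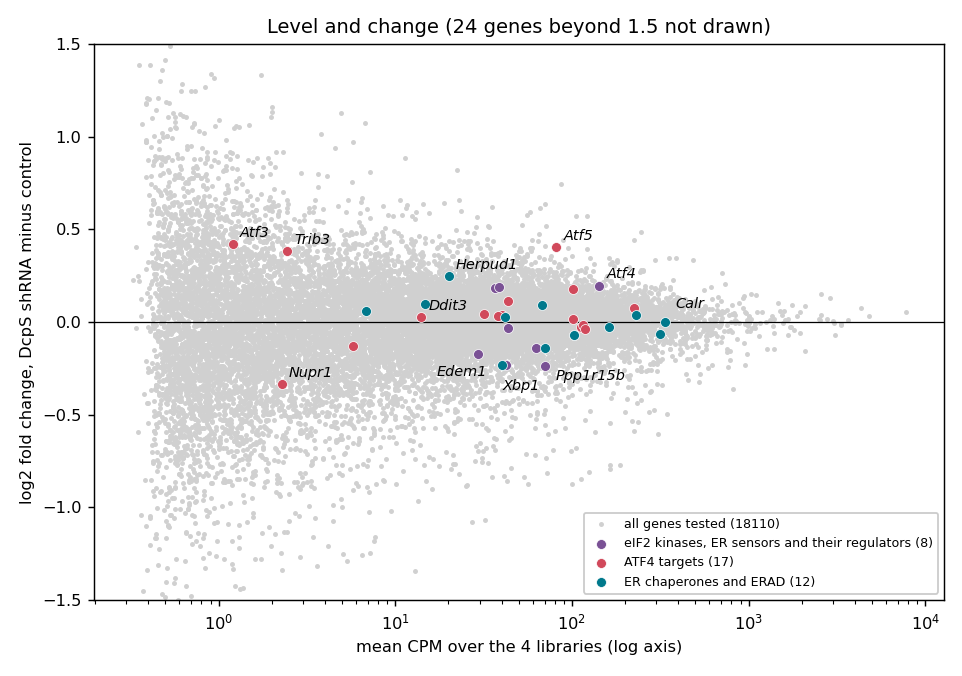
Mean CPM over the 4 libraries on a log axis (x) against the log2 fold change (y) for all 18110 genes tested in grey and the 37 members in colour by role; 24 genes with changes beyond 1.5 in size are not drawn. Atf5 sits near the upper edge of the cloud for its level, whereas Atf3, Trib3 and Nupr1 lie inside the wide spread of genes with low counts.

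Beyond the members, 123 further genes of the same pathways were listed, of which 120 were tested and 10 called (8.33%), 5 higher and 5 lower. Over all genes tested, the background for each list below, 5.79% were called, 2.14% higher and 3.65% lower. Of 23 tested further ATF4 targets 0 were higher and 2 lower, with a median of 0.014. These 2 were the transfer RNA exporter Xpot (−0.30, limma adjusted p = 0.00352), which holds a seed word, and the ubiquitin ligase adaptor Klhl24 (−0.27, 0.00555). None of 12 aminoacyl-tRNA synthetases passed with limma, edgeR or DESeq2, with 2 (Gars and Iars) at an unadjusted limma p under 0.05, beside 18.7% of all genes. The median of the 12 was 0.062. Of 18 further eIF2, eIF2B and phosphatase genes 1 was lower, Eif2b5, the catalytic subunit of the exchange factor eIF2B (−0.22, limma adjusted p = 0.0256). With 1 library left out, the calls ended for Klhl24 (0.114) and Eif2b5 (0.191) without control 1, and for Xpot (0.0589) and Eif2b5 (0.111) without control 2.

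Of 24 further ER chaperones and folding enzymes 2 were higher, the disulfide reductase Dnajc10 (0.23, limma adjusted p = 0.0215) and the prolyl isomerase Ppib (0.23, 0.0277), and the median was 0.059. The call of Dnajc10 ended without control 1 (limma adjusted p = 0.275) and that of Ppib without control 2 (0.418). Hspa5, the chaperone BiP that serves as the usual readout of ER stress, stood at 5650.6 and 5231.2 in the control libraries and at 5009.8 and 5669.1 in the knockdown libraries. Its groups overlapped, and its log2 fold change was −0.029 (95% interval −0.16 to 0.10, limma adjusted p = 0.863). Hsp90b1 (GRP94) stood at 6558.1 and 6223.9 against 5983.8 and 6528.4, with a log2 fold change of −0.032 (limma adjusted p = 0.828). For Hspa5 and Hsp90b1, as for Calr, the high libraries were control 1 and DcpS shRNA 2.

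Of 43 further ERAD, translocon and signalling genes 3 were higher and 2 lower, with a median of 0.064. Mbtps2, the site-2 protease that releases ATF6 from the membrane, measured 869.4 and 957.8 in the control libraries and 1158.4 and 1144.3 in the knockdown libraries (log2 fold change 0.34, limma adjusted p = 0.00492). Creb3l2, a membrane-bound factor of the same protease pathway, measured 418.1 and 378.4 against 270.8 and 264.8 (−0.57, limma adjusted p = 0.00165). Both knockdown libraries thus lay above both controls for Mbtps2 and below both for Creb3l2, which had the largest change of the 10 called genes. The part of the lower fibroblast and matrix markers in the value of Creb3l2 was not tested. The ERAD ubiquitin-conjugating enzyme Ube2j1 (0.26, limma adjusted p = 0.0101) was higher and the signal peptidase subunit Spcs3 (−0.25, 0.0224) lower. The enzyme Ube2g2 (0.21, limma adjusted p = 0.0455), singled out after its values were seen, was not called by edgeR (adjusted p = 0.0516). Creb3l2 was called with each library left out in turn (limma adjusted p up to 0.017). Without control 1 the calls of Mbtps2 (0.071), Ube2j1 (0.0983), Ube2g2 (0.321) and Spcs3 (0.173) ended, as did those of Ube2g2 without control 2 (0.0958) or DcpS shRNA 2 (0.154) and of Spcs3 without control 2 (0.0545) or DcpS shRNA 1 (0.0609). DESeq2 called Xpot, Klhl24, Mbtps2 and Creb3l2 of these 10 genes, and not the other 6 (adjusted p from 0.0561 to 0.217).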

How the data were processed

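The deposited values are normalised read counts, a signal that the authors made by dividing gene counts by library size factors. The submitters' processing notes name HISAT2 2.2.0, SAMtools 1.3.1, Picard, featureCounts and DESeq2, with GRCm38. Neither annotation nor strand setting was given in the sources used here. The values were whole multiples of 1 read for 100% of entries (tolerance 0.001), which gave back whole reads per library.

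Genes passing edgeR's filterByExpr on those reads (minimum count 10) were tested with limma 3.58.1 (R 4.3.3) on log2(normalised count + 1), with the group as sole term, robust empirical Bayes moderation with a mean-variance trend, and Benjamini-Hochberg adjustment at 0.05. edgeR 4.0.16 and DESeq2 1.42.0 on the recovered reads were alternatives. The code was tested on simulated data. Lengths, overlaps and 3′ UTRs came from GENCODE M21, and 4 pathway symbols were matched through RefSeq synonyms. Beyond the overlaps given above, other annotated genes overlap 10.9% of the exon bases of Ddit3, 10.4% of Psph, 9.25% of Manf and 8.05% of Eif2ak3. For Ddit3 these include a second entry of the same name. The effect of exon overlaps on the values was not tested. Every member is named; values per library are given for called members, the 3 highest and 3 lowest fold changes, and the kinases, sensors, Atf4, Ddit3 and Xbp1, and for a few others chosen after their values were seen (Asns, Herpud1, Pdia4 and Calr). Of the pathway lists, called genes (at most 4 a list by size of change), Hspa5 and Hsp90b1 are named. The members and lists were chosen with earlier results of these data known. Alternatives were another scaling, pseudocount, filter, tool or replicate block, and leaving out each library. Leaving out the seed-word genes was added after seeing the data.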

Additional observations from a re-analysis of the deposited data

How the results depend on the processing

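All fits rest on 2 libraries a group, and genes with few reads, such as Atf3, Nupr1 and Trib3, have the widest intervals. Of all genes tested, 1048 were called with limma, 448 with DESeq2 and 1626 with the replicate block, and 594 to 1439 with 1 library left out. Members called higher numbered 2, with 1 under DESeq2, 3 with the replicate block (Atf4, Atf5 and Asns) and 1 to 4 with 1 library left out. Members called lower numbered 1, with 2 under edgeR, TMM scaling or a mean of at least 1 CPM, 3 with the replicate block (Xbp1, Ppp1r15b and Edem1), 0 under DESeq2 or without the seed-word genes, and 0 to 2 with 1 library left out. Edem1 was called with edgeR (adjusted p = 0.0424) and, with limma, under TMM scaling (0.0468), a mean of at least 1 CPM (0.0477), the replicate block (0.024) and without DcpS shRNA 2 (0.0486). The titles number the libraries by set, and whether a set was a litter, batch or day is not stated there. The deviations of same-numbered libraries correlated at r = 0.0429 across 18110 genes, which are not independent replicates. Without the seed-word genes 55.7% of all calls were lower, against 63.1% with them. The words were picked from these same data, so this change is not an independent test of them.

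With 1 library left out, the lone library being assumed to vary like the others, the median of the ATF4 targets ran from 0.0016 to 0.083, that of the ER genes from −0.047 to 0.056, and their difference from −0.031 to 0.085. The fold changes that turned sign did so only there, none of them past the threshold: Eif2ak4 (−0.064 to 0.00037), Ddit3 (−0.072 to 0.13), Nupr1 (−0.74 to 0.071), Ddit4 (−0.062 to 0.091), Psph (−0.064 to 0.13), Aldh18a1 (−0.087 to 0.012), Pycr1 (−0.031 to 0.26), Pdia6 (−0.0071 to 0.079), Calr (−0.067 to 0.065), Sdf2l1 (−0.13 to 0.24), Creld2 (−0.040 to 0.23), Sel1l (−0.056 to 0.0056), Syvn1 (−0.044 to 0.099), Hspa5 (−0.12 to 0.060) and Hsp90b1 (−0.094 to 0.031). The cause of these changes was not tested, beyond the smaller number of samples. Over the named genes and settings, 620 of 682 values kept their direction and side of the threshold, 30 lost it, 12 gained it and 20 turned sign.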
